A study of Mus musculus with 23 samples.

Results

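The course of gene expression within organotypic culture was followed by comparing mouse testis explants on day 30 (D30) with explants on day 4 (D4). The comparison rests on 6 of the 23 sequenced samples, 3 at D30 and 3 at D4, picked by their labels, and it covers all genes. The comparison itself and the gene lists used below were chosen with earlier results of these data known. All explants came from fresh testes of wild-type CD-1 mice aged 6.5 days postpartum (dpp), so that D4 and D30 correspond to ages of 10.5 and 36.5 dpp. Both groups were grown in the same medium (α-MEM with KnockOut serum replacement, gentamicin and retinol), at the interface of gas and liquid. Retinol was supplied at intervals, so the number of additions and the time since the last one may differ between D4 and D30. Several explants were pooled for each replicate, and the necrotic centre that forms in long cultures was cut away before RNA extraction, so each library describes the surviving rim of pooled explants. Explants on day 16 (D16, n = 2), fresh testes taken at 10.5 dpp (n = 3) and 36.5 dpp (n = 2) from animals of the same strain, and 1 library of D30 explants cultured after controlled slow freezing (CSF) are used for reference.

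In the first wave of spermatogenesis, germ cells advance through the tubules almost in step. Spermatogonia divide by mitosis and enter meiosis as spermatocytes, and the pachytene stage of meiosis is where many testis-specific genes are switched on and where the sex chromosomes are silenced. Haploid round spermatids then build the acrosome and the flagellum, and in elongating spermatids the histones are replaced by transition proteins and then by protamines. Sertoli cells nurse the germ cells, Leydig cells make androgens, and peritubular cells, macrophages and vessels fill the wall and the space between tubules. In whole tissue, a lower level of a transcript may come from fewer cells of a type or from less RNA per cell, and these cannot be told apart here.

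Libraries held 41704439 to 69029328 counts at D4 and 39469156 to 41415343 at D30. Levels are given as CPM, counts scaled to the size of the library and not to the length of the gene. Levels of different genes are therefore not compared, and a rank of genes by their difference in CPM is one of counts of reads. Tests were edgeR quasi-likelihood tests on the counts, with p-values adjusted by Benjamini and Hochberg over 19758 genes tested. The SE beside a log2 value is approximate, being the size of that value divided by the square root of its F statistic. SEs of different contrasts therefore need not add up. A differentially expressed gene (DEG) has a log2 fold change of at least 2 in either direction and an adjusted p of at most 0.001. A call of any size, used for gene lists, has an adjusted p under 0.05. Before the results, 1 library has to be named: D30 replicate 3 stood apart from the other D30 libraries. Its rank correlation with the D4 libraries was 0.949 to 0.951, against 0.912 to 0.920 for D30 replicates 1 and 2. Its label was kept, and its values are shown throughout. Since explants were pooled and the labels do not tie libraries to animals, p-values measure a spread between libraries. That spread was estimated over all 21 libraries of 9 groups in the fit, and not over the 6 compared libraries alone. Markers of germ cells (Kit), Sertoli cells (Sox9), Leydig cells (Cyp17a1) and peritubular cells (Acta2) were detected in all 6 libraries.

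At D30, 2199 genes were higher and 132 were lower than at D4 as DEGs, which are 11.1% and 0.668% of the genes tested. Of any size, 5137 genes were higher (26%) and 2752 were lower (13.9%), and 9446 genes had an unadjusted p under 0.05. The median log2 fold change over all genes tested was 0.06. In all DEGs the 3 D30 libraries lay on 1 side of the 3 D4 libraries. The thresholds of a DEG favour this, and it was common among the 19758 genes tested, with D30 above in 5872 and below in 5360. The DEGs that were higher had a median log2 fold change of 5.28, 1167 of them lay past 5, and 579 were at the floor of detection at D4, here at most 3 counts in every library of a group. The DEGs that were lower had a median of −2.43. Leaving out D30 replicate 3 gave 2489 and 175 DEGs. A library of fresh 6.5 dpp testes that stood apart from its group was left out of the fit, and with it put back there were 726 and 47 DEGs. The count of higher DEGs was 1428 without D4 replicate 1 and 1410 without D4 replicate 3, and that of lower DEGs was 80 without D30 replicate 2, which also left 1695 genes of any size lower.

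**Figure D1:**
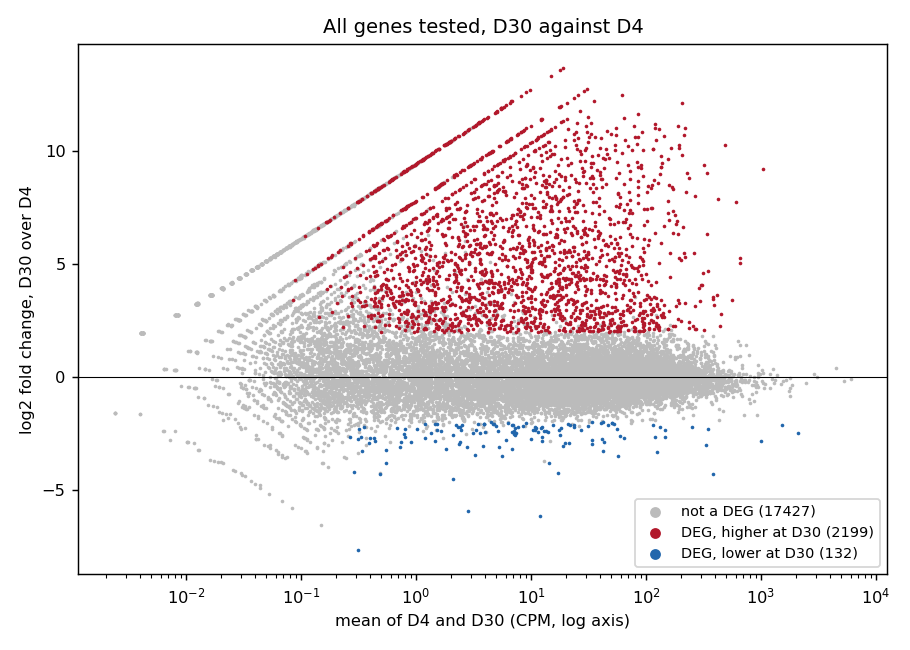
Each point is a gene tested, with its mean level over the 6 libraries in CPM (log axis) against its log2 fold change of D30 over D4, and the DEGs are coloured. The 2199 higher DEGs reach far further from 0 than the 132 lower ones.

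The higher DEGs took 0.740, 0.760 and 0.806% of all counts in the D4 libraries and 13.9, 14.4 and 5.64% in D30 replicates 1, 2 and 3. D30 replicate 3 thus held fewer such counts than its group, and it was the lowest of the D30 libraries in 2047 of the 2199 genes. In libraries outside the comparison, the share was 11.9 and 5.22% at D16, 0.824 to 0.860% at 10.5 dpp, and 37.9 and 36.2% at 36.5 dpp. These libraries had a part in the filter, the scaling and the spread of the fit that chose the genes. The lower DEGs took 1.26, 1.52 and 1.42% of counts at D4 and 0.220, 0.169 and 0.315% at D30, and D30 replicate 3 was the highest of its group in 101 of the 132. At 36.5 dpp they took 0.0402 and 0.0468%. Both sets of DEGs were chosen for their levels at D4 and D30, so the direction of their shares between D4 and D30 was fixed in advance. The part of these shares in the levels of somatic genes, and the part of D30 replicate 3 in the spread at D30, was not tested.

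**Figure D2:**
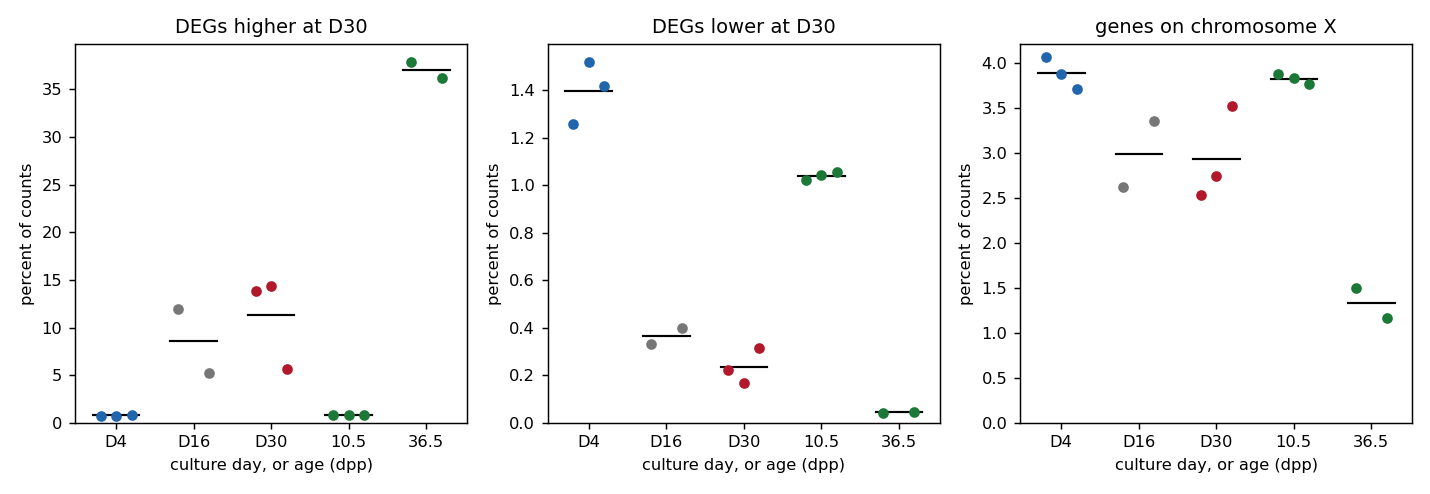
Percent of each library's counts that lay on DEGs higher at D30, on DEGs lower at D30 and on chromosome X, with a point per library and a bar at the group mean, in culture (D4, D16, D30) and in vivo (10.5 and 36.5 dpp). D30 replicate 3 is the D30 point nearest to D4 in all 3 panels, and the 36.5 dpp libraries lie beyond the D30 libraries in each. The DEGs were chosen for their levels at D4 and D30, which fixes the direction between those groups.

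Gene lists were described by how many members were called and by their median beside that of all genes. Of all genes tested, 26% were higher and 13.9% lower at any size, and counts of list members are to be read beside these shares. Where leaving out a single D4 or D30 library ended a call or moved a count of list members by more than 1.5 times, this is said beside it. The 38 lists fall into germ cell stages, somatic cell types and tissue responses.

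Spermatogonial genes were lower at D30. Of 16 genes of undifferentiated spermatogonia, 10 were lower and 2 higher (median log2 fold change −1.28). Gfra1, the receptor for the niche factor GDNF, was at 36.2, 38.6 and 35.5 CPM at D4 and at 11.7, 8.72 and 20.3 CPM at D30, a log2 fold change of −1.37 ± 0.32 (SE, n = 3 per group, edgeR adjusted p = 0.003). No D30 library reached the D4 range. Zbtb16, a repressor that maintains stem cells, fell by 1.19 ± 0.41 on the log2 scale (edgeR adjusted p = 0.03), and Nanos2, an RNA-binding protein of stem cells, fell by 1.55 ± 0.51 from a low level, whereas Etv5 did not pass the test (log2 fold change 0.21 ± 0.25). Against the list, Id4, which marks stem cells in the spermatogonial pool, rose from 20.4 ± 3.1 CPM (SD, n = 3) to 59.5 ± 14.4 CPM, and Tspan8 rose from 3.03 ± 0.37 CPM to 14.5 ± 3.0 CPM. D30 replicate 3 was the highest D30 library in 12 of the 16 genes. The count of lower genes was 6 without D30 replicate 1 or 2 or D4 replicate 2, and the calls of Zbtb16 (highest edgeR adjusted p = 0.13) and Nanos2 (0.11) were both lost without D30 replicate 1 or 2 or D4 replicate 2 or 3, that of Zbtb16 also without D4 replicate 1.

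Of 12 genes of differentiating spermatogonia and meiotic entry, 8 were lower and 1 higher (median −1.13). Stra8, the retinoic acid target that opens meiosis, was at 156, 168 and 221 CPM at D4 and at 69.1, 66.7 and 82.4 CPM at D30 (log2 fold change −1.24 ± 0.22, edgeR adjusted p = 0.00038). All D30 libraries were below all D4 libraries. Kit, the receptor of differentiating spermatogonia, fell by 0.77 ± 0.26 and Sohlh1, a transcription factor of the same cells, by 1.26 ± 0.23 on the log2 scale. The call of Kit was lost without D30 replicate 1 or 2 or any D4 library (highest edgeR adjusted p = 0.1). Dmrtb1, which governs the switch from mitosis to meiosis, was the exception and a DEG, with 29.3, 28.2 and 34.4 CPM at D4 and 309, 311 and 155 CPM at D30, and without D30 replicate 3 it was 1 of 2 higher genes.

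Genes of early meiosis were divided. Among 15 components of the synaptonemal complex and chromosome axis, 3 were higher and none lower by edgeR (median 0.53), and 6 were higher without D30 replicate 3. Without D30 replicate 2, 1 gene was lower. Sycp1, which zips paired chromosomes together, was at 195, 156 and 139 CPM at D4 and at 211, 228 and 104 CPM at D30, so the groups overlapped (log2 fold change 0.25 ± 0.28). Sycp3 and Hormad1, proteins of the chromosome axis, had log2 fold changes of 0.98 ± 0.49 and 1.19 ± 0.60 that did not pass the test, with D30 replicate 3 at 61.4 and 41.1 CPM and D30 replicate 2 at 275 and 196 CPM. Syce1, of the central element, rose by 2.25 ± 0.40 on the log2 scale (edgeR adjusted p = 0.00035).

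In meiotic recombination, 7 of 22 genes were higher and 6 lower (median 0.11), where 26% of all genes tested were higher and 13.9% lower. Spo11, which makes the DNA breaks, was at 10.5, 9.35 and 11 CPM at D4 and at 84.4, 95.2 and 29.1 CPM at D30, and the groups did not overlap (log2 fold change 2.87 ± 0.34, edgeR adjusted p = 8.1e-06). Msh4 and Mlh3, which act in crossover formation, rose by 0.73 ± 0.24 and 0.80 ± 0.19 on the log2 scale, and Dmc1, the strand exchange protein, did not pass the test (−0.73 ± 0.35). The call of Msh4 was lost without D30 replicate 1 or 2 or D4 replicate 2 or 3 (highest edgeR adjusted p = 0.12). The 6 lower genes were Prdm9, which sets where breaks are made, Mei4 and Rec114, partners of Spo11, Tex11, Tex15 and Zcwpw1, with log2 fold changes from −0.95 (Rec114) to −1.35 (Tex11). The call of Mei4 was lost without D30 replicate 1 (edgeR adjusted p = 0.081) and that of Tex15 without D4 replicate 1 (edgeR adjusted p = 0.063).

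The piRNA pathway, which silences transposons through small RNAs, was higher in 13 of 20 genes and lower in 2 (median 1.27). Mael rose from 121 ± 6.7 CPM (SD, n = 3) to 775 ± 470 CPM and Tdrd1 from 76.0 ± 2.9 CPM to 182 ± 54.6 CPM, while Piwil2 and Mov10l1 did not pass the test. Piwil4, the PIWI protein of gonocytes and spermatogonia, was the strongest exception and fell by 1.81 ± 0.28 on the log2 scale (edgeR adjusted p = 9.9e-05), and Pnldc1, a trimmer of piRNA ends, fell by 0.55 ± 0.16.

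Of 13 pachytene spermatocyte genes, 11 were higher, 9 of them DEGs, and 1 was lower (median 3.17). Piwil1, the PIWI protein of pachytene cells, was at 7.38, 7.43 and 8.10 CPM at D4 and at 456, 355 and 142 CPM at D30 (log2 fold change 5.49 ± 0.49, edgeR adjusted p = 3.7e-07). Ccna1, the meiotic cyclin A, was at 1.49, 1.85 and 1.72 CPM and then at 99.2, 96.4 and 40.5 CPM. In both genes even the lowest D30 library, replicate 3, was far above D4. Hspa2, a chaperone of spermatocytes, rose by 3.17 ± 0.32 and Mybl1, a master regulator of pachytene genes, by 1.11 ± 0.32 on the log2 scale. The call of Mybl1 was lost without D30 replicate 2 or D4 replicate 2 or 3 (highest edgeR adjusted p = 0.073). The exception was Taf7l on chromosome X, a partner of the general transcription machinery, which fell by 1.23 ± 0.18.

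Genes of haploid cells were higher in every list. All 9 spermatid transcription regulators were higher and 7 were DEGs (median 3.11). The call of Camk4 was lost without D30 replicate 1 or 2 or any D4 library (highest edgeR adjusted p = 0.15), which left 8 higher. Crem, the activator of the postmeiotic programme, was at 12.6, 10.9 and 12.6 CPM at D4 and at 94.1, 156 and 38.8 CPM at D30 (log2 fold change 3.11 ± 0.56, edgeR adjusted p = 0.00037). Rfx2, a regulator of ciliary and spermatid genes, rose from 9.33 ± 1.15 CPM (SD, n = 3) to 174 ± 70.6 CPM. Sox30 rose by 2.98 ± 0.31 and Fhl5, a coactivator of Crem, by 7.16 ± 1.23 on the log2 scale.

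All 14 acrosome genes were higher, 13 of them DEGs, with a median log2 fold change of 8.33, or 7.53 when the 5 genes at the floor at D4 enter with their lower bound. Acr, the protease acrosin, was at 0.0929, 0.0480 and 0.159 CPM at D4 and at 113, 100 and 39.3 CPM at D30 (log2 fold change 9.69 ± 0.67, edgeR adjusted p = 4.2e-08). Acrv1 and Spaca1, an acrosomal matrix protein and a membrane protein, rose by 8.42 ± 1.30 and 4.00 ± 0.71 on the log2 scale, and Zpbp, which binds the zona pellucida, by 4.36 ± 0.47. Spaca3 had no count at D4 and was at 23.9, 24.7 and 10.5 CPM at D30, at least 319-fold higher.

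All 26 genes of the flagellum and axoneme were higher and all were DEGs (median 6.28). Akap4, the main protein of the fibrous sheath, was at 0.255, 0.360 and 0.377 CPM at D4 and at 379, 346 and 90.4 CPM at D30 (log2 fold change 9.77 ± 1.31, edgeR adjusted p = 2.4e-05). Akap4 lies on chromosome X. Odf1, of the outer dense fibres, and Tekt4, of the axonemal doublets, rose by 8.16 ± 1.21 and 10.27 ± 0.86 on the log2 scale, and the motor Dnah8 rose from 36.3 ± 7.9 CPM (SD, n = 3) to 578 ± 257 CPM.

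All 12 genes of CatSper, the calcium channel of the sperm tail, were higher and 11 were DEGs (median 5.98). Catsper2 was at 7.82, 7.60 and 8.61 CPM at D4 and at 228, 204 and 85.2 CPM at D30 (log2 fold change 4.53 ± 0.44, edgeR adjusted p = 8.8e-07), and Catsper3 rose by 4.26 ± 0.88 on the log2 scale (edgeR adjusted p = 0.0012). The pore subunits Catsper1 and Catsper4 were at the floor at D4 and were at least 213-fold and 219-fold higher at D30.

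All 9 genes of spermatid chromatin were higher and 8 were DEGs (median 10.65, or 10.10 with bounds). Prm1, a protamine, was at 0.186, 0.1199 and 0.0724 CPM at D4 and at 328, 318 and 67.2 CPM at D30 (log2 fold change 11.03 ± 1.14, edgeR adjusted p = 1.7e-06). Prm2, the other protamine, was at 680, 432 and 129 CPM at D30 (log2 fold change 12.15 ± 1.34), and the transition protein genes Tnp1 and Tnp2 rose by 10.10 ± 1.32 and 11.23 ± 0.91 on the log2 scale. D30 replicate 3 was the lowest D30 library in every acrosome, flagellum, CatSper and chromatin gene, yet it lay above all D4 libraries in each.

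The lists reached these levels at different times. D16 shares its libraries with both steps, so the steps are not independent of each other or of the whole course. The median step from D4 to D16 was 7.11 for acrosome, 5.77 for flagellum and 5.69 for CatSper genes on the log2 scale, and the median step from D16 to D30 was 0.78, 0.57 and 0.57. For spermatid chromatin the medians were 3.85 and 5.31. Prm1 was at 1.26 and 1.09 CPM and Tnp1 at 5.46 and 0.787 CPM at D16, so these genes stood far below D30 on day 16, whereas Piwil1 was at 498 and 411 CPM at D16, above its mean at D30. In vivo, 10.5 dpp testes had 0.616 CPM and 36.5 dpp testes 4152 ± 1426 CPM (SD, n = 2) of Prm1.

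**Figure D3:**
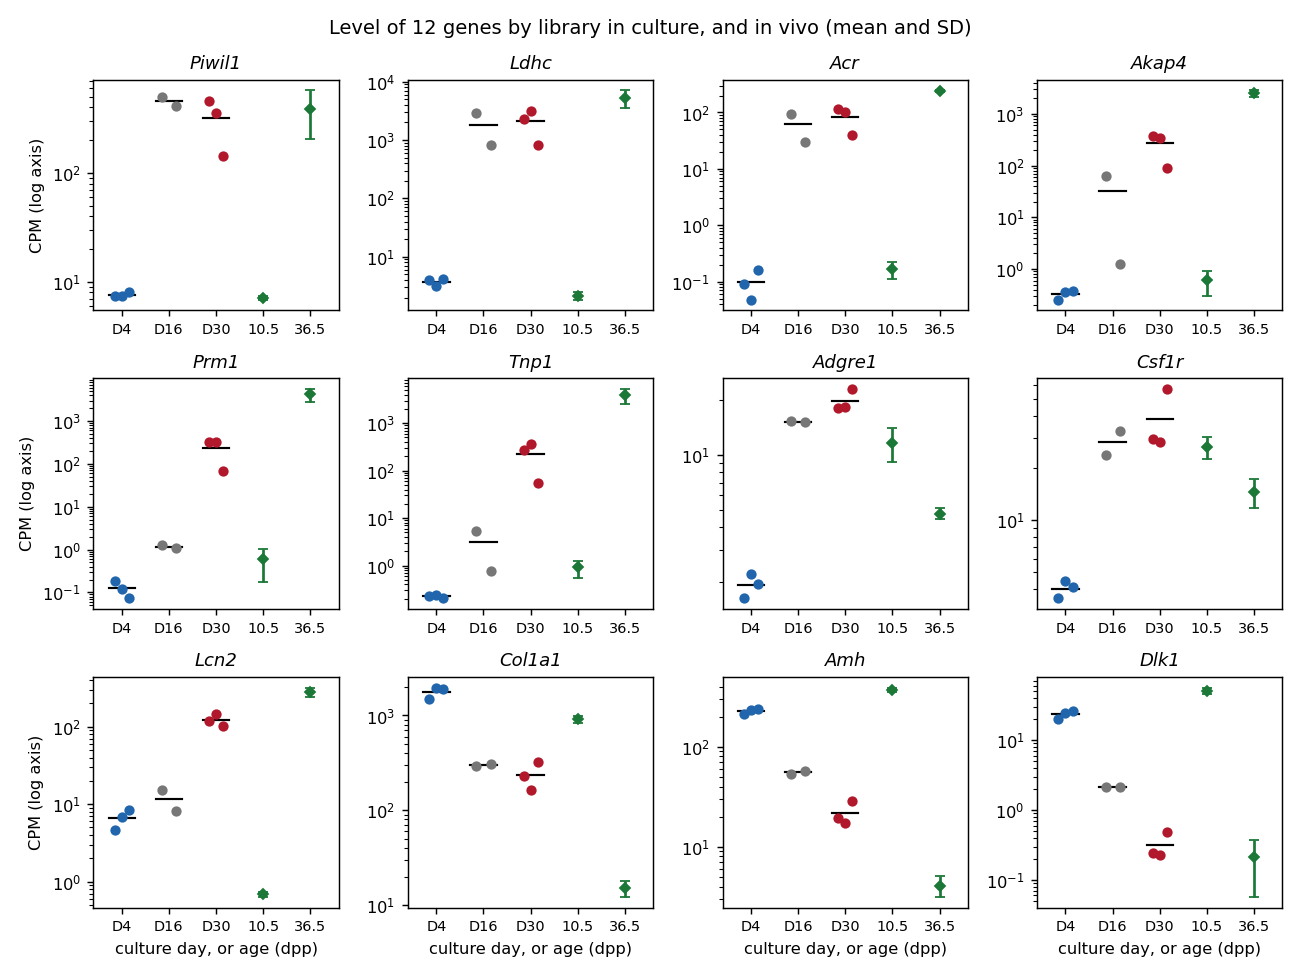
Level in CPM (log axes) of 12 genes, with a point per library and a bar at the mean for D4, D16 and D30, and the mean with SD in vivo at 10.5 and 36.5 dpp. Piwil1, Ldhc and Acr are near their D30 level on D16, Prm1, Tnp1 and Lcn2 are not, and Col1a1, Amh and Dlk1 are lower on D30 than on D4.

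Genes that replace functions of the silenced X chromosome were also examined. Of 7 autosomal retrocopies of X-linked genes, 5 were higher, all DEGs (median 3.49), and of their 7 X-linked source genes none was higher and 3 were lower (median −0.54). Pgk2, the retrocopy of a glycolytic enzyme gene, was at 0.139, 0.216 and 0.174 CPM at D4 and at 271, 366 and 91.8 CPM at D30 (log2 fold change 10.52 ± 0.91, edgeR adjusted p = 2.7e-07), while its source Pgk1 had a log2 fold change of −0.92 ± 0.37 that did not pass the test. Pdha2 rose by 3.49 ± 0.37 and its source Pdha1 fell by 0.59 ± 0.18 on the log2 scale. Gk2 rose by 10.13 ± 0.83, and Gk did not pass the test (−0.45 ± 0.25). Cstf2t did not pass the test (0.16 ± 0.14), and its source Cstf2 fell by 0.54 ± 0.15. Of the source genes, 1 was lower without D30 replicate 2 and 2 without D30 replicate 1 or D4 replicate 2, and each of these ended the call of Pdha1 (highest edgeR adjusted p = 0.089). Of the retrocopies, 1 was lower without D30 replicate 1. Retrocopies resemble their sources, so reads may be split between them, and how the counting treated such reads was not tested.

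The X chromosome took 4.06, 3.87 and 3.71% of counts in the D4 libraries and 2.53, 2.74 and 3.52% in the D30 libraries. All D30 libraries were below all D4 libraries, and the difference in means was −0.95 percentage points, with an exact two-sided permutation p of 0.1, the smallest that 3 against 3 allows. It was −1.25 points without D30 replicate 3. Of 824 X-linked genes tested, 211 were lower (25.6%) and 169 higher (20.5%), with a median log2 fold change of −0.31.

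Testis forms of metabolic enzymes were higher in 9 of 10 genes, 7 of them DEGs (median 3.70). Ldhc, the lactate dehydrogenase of spermatocytes and sperm, was at 4.04, 3.19 and 4.10 CPM at D4 and at 2323, 3158 and 806 CPM at D30 (log2 fold change 9.22 ± 0.67, edgeR adjusted p = 5.9e-08). Gapdhs, the glyceraldehyde phosphate dehydrogenase of sperm, rose by 5.51 ± 0.84 and the testis cytochrome c Cyct by 2.65 ± 0.53 on the log2 scale, and Slc25a31, a testis ADP/ATP carrier, did not pass the test (0.03 ± 0.25).

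Taken by rule rather than by list, the higher DEGs with the smallest p included Catspere1, Ankar, Abcc12, Cx3cr1, Mroh2b, 1700123L14Rik and Ccdc60. Catspere1, a CatSper subunit, was at 0.186, 0.0959 and 0.174 CPM at D4 and at 78.5, 82.7 and 34.5 CPM at D30 (log2 fold change 8.80 ± 0.42, edgeR adjusted p = 8.6e-09). Among these 7, D30 replicate 3 was the highest D30 library in Cx3cr1, a chemokine receptor of macrophages and microglia (13.3, 11.7 and 15.3 CPM), and the lowest in the other 6. By size of the difference in CPM, the higher DEGs were led by Ldhc, Phf7, a chromatin reader of male germ cells (36.01 ± 0.353 to 1285 ± 762 CPM), and Slc2a3, a glucose transporter (41.2 ± 1.31 to 1264 ± 574 CPM), followed by Fhl4, Crisp2 and Odf2.

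Long noncoding RNAs made up 1858 of the genes tested. Of them 946 were higher (50.9%) and 57 were lower, with a median log2 fold change of 2.14, against 23.3% higher and 15.2% lower among 17571 protein-coding genes. Genes with RIKEN clone names were higher in 57.7% of 1370 cases and gene models named Gm in 44.2% of 1008. The filter took in all 9 groups, so a gene at a low level at D4 could be tested for its level in other groups alone. How far this raised the shares of these classes was not tested. Long noncoding RNAs took 0.476 ± 0.022% of counts at D4 and 0.805 ± 0.211% at D30 (SD, n = 3). Whether the counting used the strand of the reads is not stated, so a noncoding RNA that overlaps another gene on the opposite strand cannot be told apart from it.

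Because Rfx2 and Crem were among the higher genes, the 250 bases before the start of each gene were searched on both strands for the motif of RFX factors, the X-box (GTTGCC, any 2 bases, then GGNAAC), and for the octamer of CREM and its relatives (TGACGTCA). The X-box letters were in 60 of 19202 promoters of tested genes (0.312%) and in 17 of 2082 promoters of higher DEGs (0.817%). The octamer was in 418 (2.18%) and in 34 (1.63%), respectively. Of the 116 promoters of lower DEGs, none held either. Of 59 genes with the X-box letters, 17 were higher DEGs (28.8%, against 11.1% of all genes) and 28 were higher at any size (47.5%, against 26%). Of 394 genes with the octamer, 32 were higher DEGs (8.12%) and 88 were higher at any size (22.3%). A match of letters is not evidence of binding. The 5 higher DEGs with an X-box match and the highest mean CPM at D30 are shown to give the motif in its place, from the RefSeq annotation of GRCm38.p6. Each line reads 5′ to 3′ on the gene's strand and ends at the base before the start of the gene, with the match in capitals (the motif or its reverse complement).
1700010I14Rik: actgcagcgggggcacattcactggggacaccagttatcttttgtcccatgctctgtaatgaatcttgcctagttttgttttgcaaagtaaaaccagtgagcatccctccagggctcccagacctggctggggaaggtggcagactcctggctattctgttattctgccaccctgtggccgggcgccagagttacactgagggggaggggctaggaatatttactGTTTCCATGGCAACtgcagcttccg
Marchf10: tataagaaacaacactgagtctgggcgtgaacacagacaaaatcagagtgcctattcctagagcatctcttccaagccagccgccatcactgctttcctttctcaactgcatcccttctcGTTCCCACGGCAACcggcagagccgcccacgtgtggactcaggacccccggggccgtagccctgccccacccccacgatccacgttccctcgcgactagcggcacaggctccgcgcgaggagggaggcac
1700034J05Rik: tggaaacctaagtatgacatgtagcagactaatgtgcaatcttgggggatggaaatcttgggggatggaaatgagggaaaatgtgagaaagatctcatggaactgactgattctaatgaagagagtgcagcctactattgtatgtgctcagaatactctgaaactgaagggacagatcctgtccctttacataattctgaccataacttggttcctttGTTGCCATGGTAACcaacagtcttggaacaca
Morn4: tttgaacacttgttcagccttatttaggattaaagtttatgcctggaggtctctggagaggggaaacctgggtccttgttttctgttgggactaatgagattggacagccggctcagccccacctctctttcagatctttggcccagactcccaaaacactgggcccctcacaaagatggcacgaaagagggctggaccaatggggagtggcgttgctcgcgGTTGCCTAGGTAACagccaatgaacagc
Bbs7: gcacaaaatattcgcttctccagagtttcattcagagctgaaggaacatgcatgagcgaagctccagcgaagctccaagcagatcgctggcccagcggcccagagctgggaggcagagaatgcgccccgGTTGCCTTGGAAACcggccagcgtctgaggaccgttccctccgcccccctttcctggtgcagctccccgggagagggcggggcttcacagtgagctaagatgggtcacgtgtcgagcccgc
The windows are chr17:8988083-8988332 (plus strand) for 1700010I14Rik, chr11:105456736-105456985 (minus strand) for Marchf10, chr6:146954422-146954671 (minus) for 1700034J05Rik, chr19:42086371-42086620 (minus) for Morn4 and chr3:36613390-36613639 (minus) for Bbs7. The match begins 25, 130, 32, 28 and 121 bases before the start.

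These genes differed in how they moved. 1700010I14Rik was at 2.76, 3.00 and 3.17 CPM at D4 and at 338, 386 and 125 CPM at D30, and Marchf10, a ubiquitin ligase of spermatids, at 0.302, 0.192 and 0.348 CPM and then at 238, 215 and 86.0 CPM. 1700034J05Rik rose by 9.84 ± 0.83 on the log2 scale. Morn4 and Bbs7, a part of the BBSome that carries membrane proteins into cilia, were already at 19.95 and 16.8 CPM on average at D4 and rose by 2.02 ± 0.27 and 2.11 ± 0.26. In all 5 the D30 libraries lay above the D4 libraries, with replicate 3 the lowest of the D30 libraries.

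Of 19 Sertoli cell genes, 3 were lower and 1 was higher (median −0.30), where 13.9% of all genes tested were lower and 26% higher. Lower were 6 without D30 replicate 3, but 1 without D30 replicate 1, D30 replicate 2 or D4 replicate 1. Amh, the hormone of immature Sertoli cells, was at 211, 235 and 237 CPM at D4, at 53.1 and 57.6 CPM at D16 and at 19.2, 17.2 and 28.9 CPM at D30 (log2 fold change −3.31 ± 0.21, edgeR adjusted p = 2.9e-08), so the groups were wide apart. The transcription factors Sox9 and Wt1 had log2 fold changes of −0.44 ± 0.26 and −0.63 ± 0.24 that did not pass the test, with D30 replicate 3 the highest D30 library of each (184 and 298 CPM). Gata4 (−0.54 ± 0.27) and Rhox5 (0.77 ± 0.46) did not pass it either, and the iron carrier gene Trf rose by 0.70 ± 0.18. In 17 of the 19 genes D30 replicate 3 was the highest D30 library.

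Of 12 genes of blood-testis barrier junctions, 2 were lower and 1 higher (median −0.28). Cldn3, a tight junction claudin, was the exception and a DEG, at 0.580, 0.671 and 1.03 CPM at D4 and at 16.54, 15.6 and 7.68 CPM at D30 (log2 fold change 4.21 ± 0.41, edgeR adjusted p = 9.0e-07). The other first-listed genes, Gja1, Ocln and Tjp1, had log2 fold changes of −0.10 ± 0.22, −0.35 ± 0.28 and −0.21 ± 0.36 and did not pass the test.

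Leydig cell and steroid synthesis genes moved in both directions, 4 higher and 3 lower of 14 (median −0.21). These shares are near those of all genes tested, of which 26% were higher and 13.9% lower. Star, which brings cholesterol into mitochondria, was at 42.5, 44.3 and 35.5 CPM at D4 and at 99.9, 81.1 and 123 CPM at D30 (log2 fold change 1.39 ± 0.27, edgeR adjusted p = 0.0007), and Cyp17a1, which makes androgen precursors, at 10.8, 14.3 and 17.98 CPM and then at 28.4, 32.2 and 50.4 CPM (1.44 ± 0.26, edgeR adjusted p = 0.00036). Neither gene overlapped between groups. In vivo, Cyp17a1 was at 350 CPM at 10.5 dpp and at 821 ± 134 CPM at 36.5 dpp (SD, n = 2). Its levels at D4 and D30 were thus far below those of fresh testes of the same ages. The paper reports no increase of Cyp17a1 at D4 or later in culture, whereas here it rose between D4 and D30 from this low level. The 3 lower genes were Hsd17b3, which completes testosterone synthesis, and Srd5a1 and Akr1c14, which convert androgens further. Hsd17b3 was a DEG, at 19.6, 20.5 and 18.6 CPM at D4 and at 2.54, 4.08 and 3.65 CPM at D30 (log2 fold change −2.43 ± 0.27, edgeR adjusted p = 3.8e-06). Cyp11a1 and Hsd3b1 did not pass the test (−0.26 ± 0.33 and −0.38 ± 0.26), and Cyp11a1 was at 150 CPM in D30 replicate 3 against 57.4 and 62.5 CPM in the other D30 libraries. Without D30 replicate 3, 5 genes were lower, and without D30 replicate 1 the call of Akr1c14 was lost (edgeR adjusted p = 0.051).

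Of 12 peritubular and smooth muscle genes, 3 were lower and 1 higher (median −0.38). Actg2, an actin of smooth muscle, rose by 2.02 ± 0.35 on the log2 scale, whereas Acta2, the actin usually used to mark peritubular cells, and Myh11 and Cnn1 did not pass the test. None of the list was lower by edgeR without D30 replicate 2, 1 was lower without D4 replicate 2 or 3, and 5 without D30 replicate 3. Of 15 endothelial genes, 4 were lower and 2 higher (median −0.33). Kdr, a receptor for VEGF, fell from 79.2 ± 9.2 to 32.2 ± 4.9 CPM (SD, n = 3) and Tek by 0.88 ± 0.29 on the log2 scale, while Pecam1 and Cdh5 did not pass the test, and Vwf and Sox17 rose by 1.32 ± 0.43 and 2.24 ± 0.36. The call of Vwf was lost without D30 replicate 1 or 3 or D4 replicate 1 or 2 (highest edgeR adjusted p = 0.11), which left 1 gene higher, and that of Tek without D30 replicate 2 or 3 or D4 replicate 2 or 3 (highest edgeR adjusted p = 0.065).

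Macrophage genes moved as a group. Of 15 genes, 13 were higher, all of them DEGs, and none was lower by edgeR (median 3.26). Adgre1, which encodes the F4/80 antigen, was at 1.62, 2.21 and 1.96 CPM at D4, at 15.3 and 15.1 CPM at D16 and at 18.1, 18.2 and 22.9 CPM at D30 (log2 fold change 3.44 ± 0.23, edgeR adjusted p = 3.7e-08). Csf1r, the receptor of the macrophage growth factor, was at 3.53, 4.46 and 4.08 CPM at D4 and at 29.4, 28.1 and 57.3 CPM at D30. The groups of both genes were far apart, and D30 replicate 3 was the highest library, as it was in 12 of the 15 genes. The lysosomal marker Cd68 and the mannose receptor Mrc1 rose by 2.01 ± 0.22 and 2.21 ± 0.20 on the log2 scale. The summed level of the list was 110 to 140 CPM at D4 and 598 to 950 CPM at D30. Cd163, a scavenger receptor, did not pass the test (0.40 ± 0.60). Most of the step lay before D16, with a median of 2.86 from D4 to D16 and of 0.32 from D16 to D30. Aif1 differed from the others: it was lowest in D30 replicate 3 (61.2, 49.3 and 21.1 CPM) and rose in vivo from 3.38 CPM at 10.5 dpp to 416 ± 24.2 CPM at 36.5 dpp (SD, n = 2).

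Markers of other blood cells stayed low. Of 12 genes of other leukocytes, 8 could be tested, of which 4 were higher and 3 lower (median 0.53). Their summed level was 1.46 to 2.85 CPM at D4 and 2.32 to 5.34 CPM at D30. Cd3e and Cd79a, of T and B cells, and S100a9, of neutrophils, were lower, and S100a9 had no count at D30. The call of Cd79a was lost without D30 replicate 2 or 3 or any D4 library (highest edgeR adjusted p = 0.14), and 2 genes were higher without D30 replicate 1 or D4 replicate 1. Cd3d rose to 2.80, 2.99 and 0.605 CPM while its partner Cd3e fell. Of 8 erythroid genes 6 could be tested, of which 3 were higher (median 0.52), among them Alas2 (1.51 ± 0.29). The globin genes Hba-a1 and Hbb-bt were at no more than 0.384 CPM in any of the 6 libraries. Of 11 adipocyte genes 10 could be tested, of which 3 were higher and 1, Pparg, was lower (median 0.81, or 0.30 with bounds), and Adipoq rose to 1.18, 1.47 and 0.579 CPM from at most 0.209 CPM. Without D30 replicate 3 or D4 replicate 1, 2 adipocyte genes were lower.

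**Figure D4:**
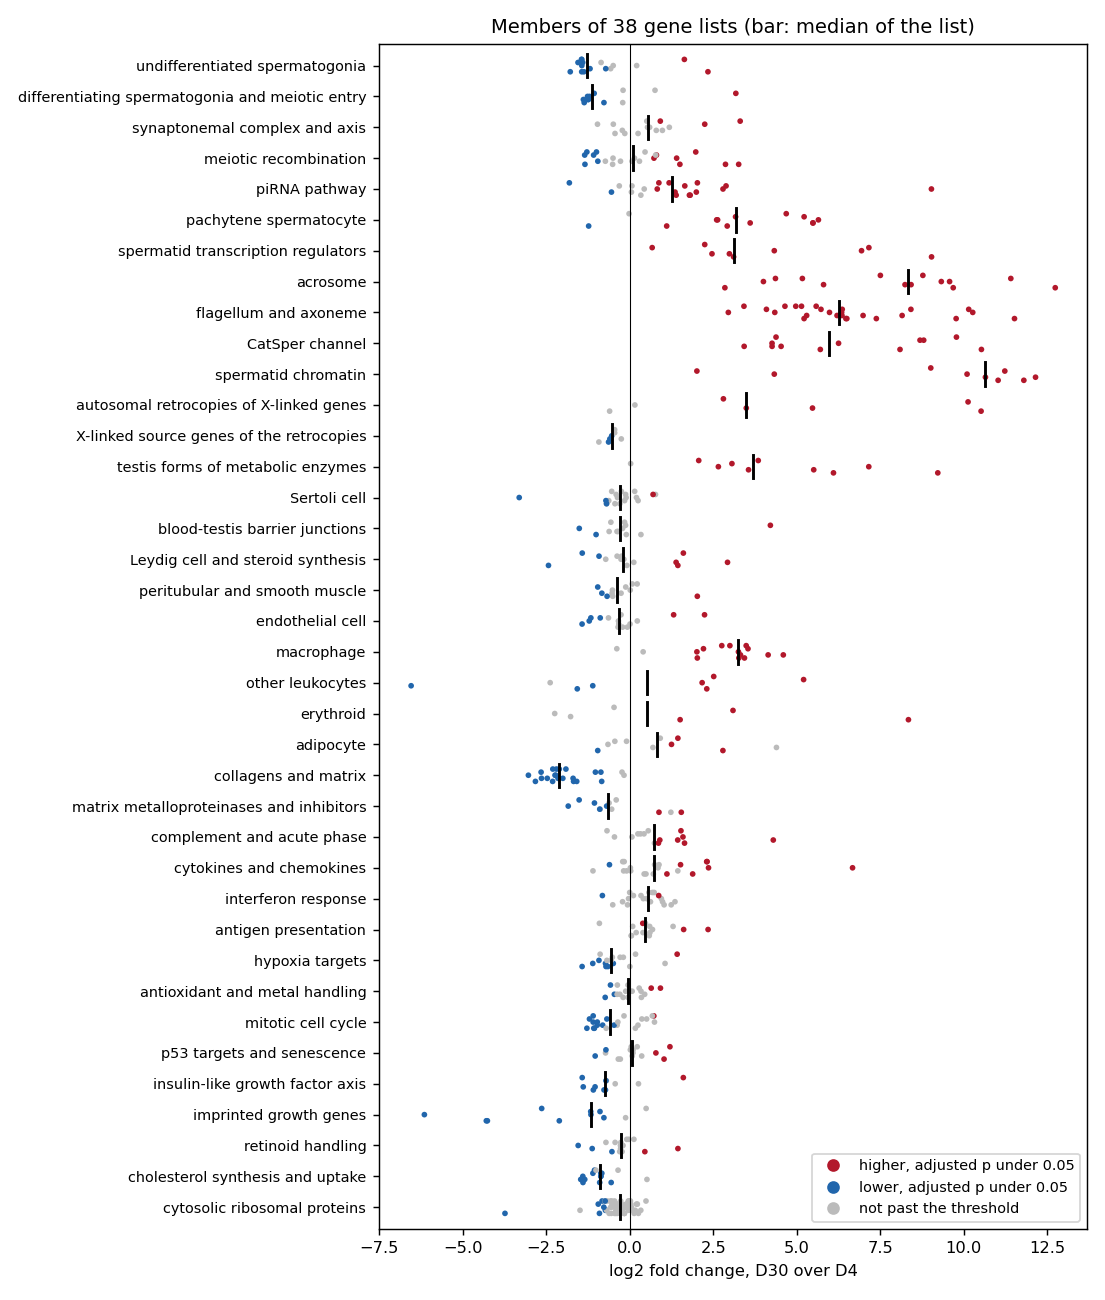
Each point is a tested member of a list, at its log2 fold change of D30 over D4, coloured by its call, and the bar is the median of the list. The acrosome, flagellum, CatSper and chromatin lists lie wholly to the right of 0, the macrophage list lies to the right except for 1 gene not called, and the collagen list lies wholly to the left.

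The extracellular matrix was lower. Of 22 collagens and matrix genes, 20 were lower, 13 of them DEGs, and none was higher by edgeR (median −2.13). Col1a1, a chain of type I collagen, was at 1485, 1962 and 1880 CPM at D4, at 290 and 311 CPM at D16 and at 231, 163 and 321 CPM at D30 (log2 fold change −2.82 ± 0.35, edgeR adjusted p = 1.1e-05). Col3a1 was at 3140, 3991 and 3621 CPM at D4 and at 590, 452 and 802 CPM at D30. The groups of both genes were far apart, and D30 replicate 3 was the highest D30 library in 18 of the 22 genes. Fn1, fibronectin, fell by 2.23 ± 0.33 on the log2 scale, and Bgn by 0.84 ± 0.24, a call lost without D30 replicate 2 (edgeR adjusted p = 0.058). Dcn (−0.23 ± 0.39) and Sparc (−0.17 ± 0.24) did not pass the test. Most of the step lay before D16 (medians −1.57 and −0.52). By size of the difference in CPM, 5 of the 6 leading lower DEGs were collagens (Col3a1, Col1a2, Col1a1, Col5a1 and Col6a2), and the other was H19.

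Matrix metalloproteinases and their inhibitors were lower in 5 of 12 genes tested and higher in 2 (median −0.65). Mmp2 fell by 1.84 ± 0.32 on the log2 scale, Mmp3 and Timp1 did not pass the test, and the exceptions were Mmp12, the macrophage elastase (6.52 ± 2.18 to 18.1 ± 7.6 CPM; SD, n = 3), and Timp2 (434 ± 22 to 752 ± 113 CPM). The call of Mmp12 was lost without D30 replicate 3 or D4 replicate 1 or 3 (highest edgeR adjusted p = 0.068).

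Imprinted growth genes were lower in 9 of 11 and higher in none by edgeR (median −1.17), and 4 were DEGs. H19 was at 635, 718 and 837 CPM at D4, at 68.6 and 101 CPM at D16 and at 32.9, 21.3 and 52.2 CPM at D30 (log2 fold change −4.29 ± 0.43, edgeR adjusted p = 1.3e-06). Dlk1, a Notch ligand relative made by immature stromal cells, was at 20.3, 24.6 and 26.6 CPM at D4 and at 0.241, 0.228 and 0.479 CPM at D30 (−6.15 ± 0.34, edgeR adjusted p = 1.6e-08). Peg3 fell by 0.89 ± 0.29 on the log2 scale, a call lost without D30 replicate 2 or D4 replicate 1 or 2 (highest edgeR adjusted p = 0.082). Mest was the even one, at 58.4, 60.95 and 57.7 CPM at D4 and at 46.6, 51.7 and 55.2 CPM at D30 (−0.12 ± 0.19), and it did not pass the test.

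The other lower DEGs with the smallest p, after Dlk1 and Amh, were Hs6st2, Gpc3, Lvrn, Shisa2, Cdh11 and Col26a1. Hs6st2, which sulfates heparan chains, and Gpc3, a glypican that carries such chains, both lie on chromosome X. Hs6st2 was at 82.6, 69.03 and 67.4 CPM at D4 and at 9.85, 10.2 and 10.3 CPM at D30, and Gpc3 at 65.5, 79.4 and 85.6 CPM and then at 5.63, 6.56 and 10.0 CPM. Cdh11, a cadherin of mesenchymal cells, fell by 2.28 ± 0.18 on the log2 scale.

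The insulin-like growth factor axis was lower in 7 of 11 genes and higher in 1 (median −0.72). Igf1 was at 174, 146 and 135 CPM at D4 and at 70.2, 74.4 and 109 CPM at D30 (log2 fold change −0.77 ± 0.25, edgeR adjusted p = 0.024), Igf2 fell by 1.39 ± 0.44 on the log2 scale, and Igfbp3 and Igf1r did not pass the test. Igfals rose to 0.580, 0.557 and 0.202 CPM from at most 0.168 CPM. The count of lower genes was 3 without D30 replicate 1, 2 without D30 replicate 2, and 4 without D4 replicate 1 or 3. The call of Igfals was lost without D30 replicate 1 or 2, that of Igf1 also without D4 replicate 1 (highest edgeR adjusted p = 0.095), and that of Igf2 without D30 replicate 2 (edgeR adjusted p = 0.078).

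Genes of cholesterol synthesis and uptake were lower in 12 of 15 and higher in none by edgeR (median −0.90). Sqle and Hmgcs1, enzymes of the synthesis, fell from 169 ± 7.55 to 87.0 ± 10.1 CPM and from 387 ± 24.6 to 206 ± 54.4 CPM (SD, n = 3), or by 0.87 ± 0.15 and 0.83 ± 0.28 on the log2 scale (SE). The D30 libraries were below the D4 libraries in both genes. The call of Hmgcs1 was lost without D30 replicate 1 or 2 or D4 replicate 1 or 2 (highest edgeR adjusted p = 0.1), and 1 gene was higher without D30 replicate 3. Vldlr, a lipoprotein receptor outside the list, fell by 1.71 ± 0.15 on the log2 scale.

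Mitotic cell cycle genes were lower in 11 of 22 and higher in 1, Plk1 (median −0.58). Mki67 fell by 1.05 ± 0.39 and Ccnd1 by 0.97 ± 0.20 on the log2 scale, and Top2a and Cdk1 did not pass the test. The lower genes included Mcm2 to Mcm6, helicase subunits of DNA replication, and Mcm7 did not pass the test (0.17 ± 0.23). Without D30 replicate 3, 4 genes of this list were higher and 9 lower. The call of Mki67 was lost without any 1 of the 6 libraries (highest edgeR adjusted p = 0.13), and that of Plk1 without any but D30 replicate 3 (highest edgeR adjusted p = 0.12). The p53 and senescence genes were higher in 3 of 15 and lower in 2 (median 0.08): Cdkn1a, Cdkn2b and Mdm2 rose by 1.03 ± 0.21, 1.21 ± 0.20 and 0.78 ± 0.18, and Cdkn2a and Phlda3 fell by 1.03 ± 0.23 and 0.71 ± 0.22. These shares are near those of all genes, of which 26% were higher and 13.9% lower, and the call of Phlda3 was lost without D30 replicate 1 or D4 replicate 3 (highest edgeR adjusted p = 0.069).

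Complement and acute phase genes were higher in 7 of 15 tested and lower in none by edgeR (median 0.74). Lcn2, which binds bacterial siderophores, was the DEG, at 4.64, 6.79 and 8.30 CPM at D4, at 15.3 and 8.26 CPM at D16 and at 118, 145 and 101 CPM at D30 (log2 fold change 4.30 ± 0.29, edgeR adjusted p = 3.7e-08). C3 and C7 rose by 1.64 ± 0.25 and 1.44 ± 0.27 on the log2 scale, and Cfi and Serpina3n did not pass the test. The list moved after D16, with a median of −0.13 from D4 to D16 and 0.82 from D16 to D30.

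Cytokines and chemokines were higher in 7 of 22 tested and lower in 1, Cx3cl1, the ligand of Cx3cr1 (median 0.73). Of all genes tested, 26% were higher and 13.9% lower. The call of Cx3cl1 was lost without any library but D30 replicate 3 (highest edgeR adjusted p = 0.18). Ccl8, a monocyte chemokine, was at 0.0464, 0.0959 and 0.0580 CPM at D4 and at 3.81, 10.6 and 5.21 CPM at D30. Il1b and Tnf rose too but stayed near or below 1 CPM. The first-listed Il33, Il6, Cxcl1 and Ccl2 did not pass the test, with log2 fold changes between −1.10 (Il6) and 0.88 (Ccl2). The interferon response was higher in 1 gene, Mx1, and lower in 1 of 20 (median 0.54), and antigen presentation was higher in 3 of 15 (median 0.47), namely Cd74, H2-Aa and Tapbp, where 26% of all genes were higher. The call of Mx1 was lost without any 1 of the 6 libraries (highest edgeR adjusted p = 0.2), and the lower call was lost without any but D30 replicate 3. Tapbp lost its call without D30 replicate 1 or 3 or D4 replicate 1 or 2 (highest edgeR adjusted p = 0.15), and H2-Aa without D4 replicate 1 (edgeR adjusted p = 0.067), which left 1 gene of antigen presentation higher.

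Hypoxia targets were lower in 7 of 17 and higher in 1 (median −0.55). Vegfa, which drives vessel growth, was at 333, 315 and 256 CPM at D4 and at 104, 102 and 112 CPM at D30 (log2 fold change −1.42 ± 0.23, edgeR adjusted p = 0.00014), and Slc2a1, a glucose transporter, fell by 0.72 ± 0.19 on the log2 scale. Ldha was the exception (1.42 ± 0.38). The count of lower genes was 4 without D30 replicate 1 or 2 or D4 replicate 2 or 3. Antioxidant and metal handling genes were higher in 2 of 18 and lower in 3 (median −0.05): Hmox1, heme oxygenase, fell by 0.73 ± 0.15, Mt1 rose by 0.92 ± 0.35 and Gpx3 did not pass the test (0.07 ± 0.28). The call of Mt1 was lost with RLE factors and without D30 replicate 1 or 2 or D4 replicate 1 or 2 (highest edgeR adjusted p = 0.19). Sod3, the other higher gene, rose by 0.64 ± 0.19, a call lost without D30 replicate 3 or D4 replicate 1 (highest edgeR adjusted p = 0.081). In this list 1 gene was higher without any 1 D30 library or D4 replicate 2, and none was higher by edgeR without D4 replicate 1. Only 1 was lower without D30 replicate 2 or D4 replicate 2. Retinoid handling genes, of interest because retinol was supplied to the medium at intervals, were higher in 2 of 16 and lower in 3 (median −0.27). Stra6, the retinol uptake receptor, fell by 1.54 ± 0.26 and Lrat, which stores retinol as ester, rose by 1.44 ± 0.29, while Aldh1a1 and Cyp26b1 did not pass the test. In this list 1 gene was higher without any 1 of the 6 libraries. Of 65 cytosolic ribosomal protein genes 8 were lower and none was higher by edgeR (median −0.30), and these genes have near-identical copies among which reads may be split. The count of lower genes was 2 without D30 replicate 1, 5 without D30 replicate 2 and 4 without D4 replicate 3. Rpl26 was at 1.51, 26.4 and 44.5 CPM in the D4 libraries.

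The course in culture was then set against the same interval in vivo, from 10.5 to 36.5 dpp, which shares no library with it. The difference between courses is the log2 change in culture minus the log2 change in vivo, called with the thresholds used for DEGs. It was positive in 856 genes (4.33%) and negative in 601 (3.04%). The balance between these counts turns with the scaling: RLE factors, which moved the median difference over all genes from 0.00 to −0.25, gave 513 and 793, and library sizes alone, which moved it to 0.70, gave 2562 and 309. A positive difference may be a larger rise or a smaller fall. These counts also moved with single libraries. The positive count was 278 and 367 without either 36.5 dpp library, 555 to 562 without one of the 10.5 dpp libraries, 506 to 546 without one of the D4 libraries and 530 without D30 replicate 3. The negative count was 375 and 294, 324 to 343 and 375 to 383 without the same 36.5 dpp, 10.5 dpp and D4 libraries.

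Lists of somatic cells, of tissue and of germ cells held genes with a positive difference. It was called in 9 of 19 Sertoli genes (7 with RLE factors, 17 with library sizes) and in 7 of 15 macrophage genes (6 and 8). It was also called in 5 of 11 imprinted growth genes (4 and 5) and in 5 of 12 metalloproteinase and inhibitor genes (4 and 6). Of 12 genes of differentiating spermatogonia and meiotic entry, 4 were called (4 and 5). In none of these lists was a negative difference called under any of these scalings. In Sertoli genes the median log2 change was −0.30 in culture and −2.15 in vivo. Sox9, for example, went from 186 CPM at 10.5 dpp to 13.7 ± 0.354 CPM at 36.5 dpp (SD, n = 2), against 201 ± 24.6 and 141 ± 38.1 CPM (SD, n = 3) in culture. Macrophage genes had a median of 3.26 in culture and of 0.56 in vivo. These are changes from a starting level, which for Cx3cr1 was 0.798 CPM at D4 and 12.4 CPM at 10.5 dpp. Cx3cr1 was then at 13.4 CPM at D30 and at 4.73 CPM at 36.5 dpp. The starting levels of the rest of the list are not compared here. Collagens had a positive difference in 5 and a negative one in 3 of 22 (10 and 2 with library sizes), with medians of −2.13 in culture and −3.79 in vivo.

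In genes of haploid cells the medians were larger in vivo. The medians in vivo were 6.05 for spermatid transcription regulators, 10.29 for acrosome, 8.52 for flagellum, 9.01 for CatSper and 13.34 for spermatid chromatin genes. A negative difference was called in 2 of 9, 1 of 14, 2 of 26, 0 of 12 and 1 of 9 genes, and a positive one in none. For Prm1 the difference was −2.43 ± 1.40 (SE, edgeR adjusted p = 0.18) and for Akap4 −2.99 ± 1.495 (edgeR adjusted p = 0.12), so these changes cannot be told apart at this precision. Ldhc, with −2.83 ± 0.72 (edgeR adjusted p = 0.0057), and Gapdhs, with −4.57 ± 1.07 (edgeR adjusted p = 0.0033), missed the threshold for a call. In the steroid list, Hsd17b3 (−3.40 ± 0.38, edgeR adjusted p = 2.8e-05) and Hsd3b6 (−5.59 ± 0.68, edgeR adjusted p = 4.3e-05) were called. Hsd17b3 was at 62.6 CPM at 10.5 dpp and 71.1 ± 28.6 CPM at 36.5 dpp (SD, n = 2), against its fall in culture.

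**Figure D5:**
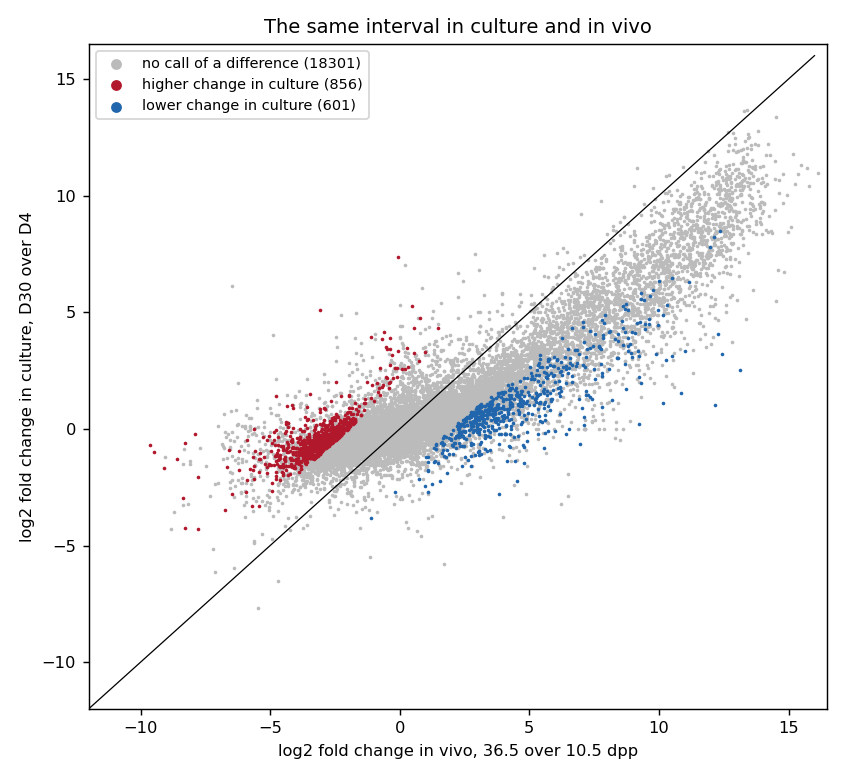
Each point is a gene tested, at its log2 fold change in vivo (36.5 over 10.5 dpp, horizontal) and in culture (D30 over D4, vertical), with genes called for the difference in colour and a line where both are equal. The 856 genes called above the line lie mostly where the change in vivo is below 0, and the 601 called below it mostly where the change in vivo is above 0.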

How the data were processed

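Counts per gene were deposited for 23 samples as a single table. Per the labels and the study's methods, the authors sequenced single-end reads of 50 bases from poly-A RNA with a stranded kit, converted them with bcl2fastq (2.17.1.14), aligned them to GRCm38 with STAR (2.7.3a) and counted them with HTSeq (0.12.4; mode intersection-nonempty) to give the deposited counts. The strand setting of the counting is not given in the sources used here. The table held 27466 genes, of which 27373 were in the RefSeq annotation (0.0204% of counts lay outside it) and 3712 had no count. No column was left unmapped. A pair of 6.5 dpp columns held identical values and was used as 1 library, and 6.5 dpp fresh replicate 1 stood apart and was left out, which left 21 libraries in 9 groups and 12 residual degrees of freedom.

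Depth was 39469156 to 69029328 counts in the D30 and D4 libraries. Genes were filtered and TMM factors were set with edgeR (4.0.16, R 4.3.3, limma 3.58.1), and the groups were compared with the quasi-likelihood test and the Benjamini-Hochberg adjustment over 19758 genes. A DEG had a log2 fold change of at least 2 in either direction and an adjusted p of at most 0.001, and a call of any size had an adjusted p under 0.05. Where a group had at most 3 counts in every library, a fold is given as a bound against 3 counts per library. The difference between courses was a contrast in the same fit. The SE of a log2 value was taken as its size divided by the square root of the F statistic of its test. The share of counts on chromosome X was compared with an exact permutation test. Tables and plots were made in Python 3.11.15 with pandas (2.3.3), scipy (1.17.1) and matplotlib (3.10.9). The fitting was tested on simulated data.

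The comparison and the gene lists were chosen with earlier results of these data known. Genes were named by a rule: the first 4 of a list and members called against its majority, the 8 DEGs in each direction with the smallest p and the 6 with the largest difference in CPM, the 5 genes in each direction with the smallest p in the difference between courses, and genes that the study discusses. Other named genes were chosen after their values were seen, namely Spaca3, Cd163, Aif1, Cd3d, Sparc, Cdkn2b, Ccl8, Il1b, Tnf, H2-Aa, Tapbp, Stra6, Rpl26, Hsd3b6, the Mcm genes and the genes of the printed promoters. Some genes that the rule names are not reported here. Symbols of 4 list members were matched by synonym. Near-identical copies and overlapping genes are uncertain. Alternatives were RLE factors, library sizes alone, 2 other filters, DESeq2 (1.42.0), a fit of only the groups compared, the left-out library put back, the D30 CSF library grouped with D30, a replicate block, looser thresholds and leaving out each replicate.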

Additional observations from a re-analysis of the deposited data

Results flagged for a closer look

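The change in culture differed from the change in vivo in the following 10 genes, the 5 in each direction with the smallest p-values of the difference itself (edgeR quasi-likelihood test of the contrast, adjusted p from 2.6e-06 to 2.8e-06). Each value is the log2 change from D4 to D30 minus the log2 change from 10.5 to 36.5 dpp. Cx3cr1, a chemokine receptor of macrophages, had a difference of 4.75, and Fcrls, a receptor-like gene of macrophages and microglia, one of 5.04, with 1.21 and 17.7 CPM at D4 and D30 against 10.7 and 2.90 CPM at 10.5 and 36.5 dpp.

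Bcan, a matrix proteoglycan, had a difference of 5.74, having gone from 144 to 0.371 CPM in vivo while the D30 libraries were at 16.8, 13.9 and 25.5 CPM. Mest had a difference of 4.08, with 51.2 CPM at D30 and 1.90 CPM at 36.5 dpp. Mmp11, a matrix metalloproteinase, had a difference of 4.02, with 75.8 CPM at D30 and 3.28 CPM at 36.5 dpp.

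The other 5 genes had a more positive change in vivo. Lcn2 had a difference of −5.16, although it rose in culture, and it went from 0.685 to 280 CPM in vivo. Dpp6, a potassium channel partner, had a difference of −5.51, with 3.33 and 1.199 CPM in culture against 0.676 and 6.88 CPM in vivo. Cacna1a, a calcium channel, had a difference of −3.29, with 5.23 CPM at D30 and 31.6 CPM at 36.5 dpp. Cdyl, a chromodomain protein of spermatids, had a difference of −2.52, with 84.5 and 255 CPM, and Csnk1g2, a casein kinase, one of −3.01, with 141 and 715 CPM.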

How the results depend on the processing

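Of 3035 values of named genes under the alternatives, 2815 kept direction and side of the threshold, 153 lost their call, 39 gained one, and 28 that were not called in either fit changed sign. No called value changed sign (0). Of 608 counts of list members, 521 stayed within 1.5 times, 75 were smaller and 12 larger. With 6.5 dpp fresh replicate 1 put back there were 726 DEGs higher and 47 lower, and 448 positive and 303 negative differences between courses. With a log2 change of at least 1 and an adjusted p under 0.05, these were 4453, 1389, 4273 and 3330. RLE factors gave 513 positive differences, library sizes alone 2562 positive and 309 negative, DESeq2 1561 negative, and a fit of only the groups compared 960 negative. The cause of these shifts was not tested.

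Leaving out 1 replicate at a time gave 1410 to 2489 DEGs higher, 80 to 175 lower, 4330 to 5463 genes of any size higher and 1695 to 3061 lower, 278 to 880 positive and 294 to 521 negative differences between courses, and a difference in the X share from −1.25 to −0.756 points. Same-numbered D30 and D4 libraries did not deviate together (correlations 0.019, −0.026 and −0.026), which gave no sign of pairing. With 3 libraries per group these correlations cannot tell whether same-numbered samples shared animals or a batch. A fit with the replicate block gave 1999 DEGs higher and 125 lower, 4961 and 2566 genes of any size, and 662 and 450 differences between courses. Depth does not limit genes of many counts, whereas for the 579 DEGs at the floor at D4 only a lower bound of the change is given. With 3 libraries per group, of which 1 D30 library stands apart, and 2 at 36.5 dpp, precision rests on the spread shared over 9 groups.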

Other observations

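The D30 library from explants frozen before culture (D30 CSF) has no replicate and was not tested against D4 by itself. In it Prm1 was at 87.8 CPM, Acr at 63.4 CPM, Ldhc at 2527 CPM, Adgre1 at 22.6 CPM, Col1a1 at 175 CPM, Amh at 23.8 CPM and Lcn2 at 109 CPM. These 7 values lay between the lowest and the highest of the 3 D30 libraries that were not frozen. Over 203 genes recomputed under the alternatives, 118 lay within that range in the D30 CSF library, 53 above it and 32 below it. Mest (65.5 CPM) and Cx3cr1 (17.8 CPM) were among those above.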
